A study of Mus musculus with 8 samples.

Results

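The mitosis genes described here are 43 genes whose products act in entry into mitosis, chromosome condensation, spindle attachment, anaphase and cytokinesis, measured in cultured mouse B cell precursors without Pax5. They were taken by name from a fixed list: 41 matched the gene name of a probe, and Ndc80 and Spc25, listed on the array under the older names Kntc2 and Spbc25, were matched through their RefSeq accessions. Each gene was read by its brightest probe, out of 74 probes. All 43 were well above background in both RNAs on all 8 arrays, and they stand among 19988 tested features out of 27574 on the array.

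The cells were bone marrow-derived Pax5-/- pro/preB cells grown with the cytokine IL-7 on gamma-irradiated OP9 stroma, a feeder layer. Pax5 is the transcription factor that commits lymphoid progenitors to the B lineage. The first 3 groups are clone 4 cells given 10, 300 or 1000 ng/ml doxycycline, the fourth is Pax5sz2, and the control is clone 4 at 0 ng/ml doxycycline. Clone 4 is 1 clone that carries the doxycycline-dependent activator rtTA, from a retrovirus selected with histidinol, and a human Pax5 transgene (huPax5) behind an rtTA-responsive element, selected with puromycin. Pax5sz2 cells carry rtTA but no huPax5 and are labelled as treated with doxycycline at a dose the labels do not give. In that comparison transgene, inducer and cell differences cannot be told apart. Each of the 4 RNAs was hybridised against the control RNA on a pair of two-colour arrays: array 1 has the named RNA in Cy5 and array 2 has it in Cy3. Both arrays of a pair measure the same RNA, so a comparison is 1 sample with no replicate culture, and any ± is the SD of those 2 technical arrays. In RNA from whole cultures, fewer dividing cells and less mitotic RNA per cell cannot be told apart.

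Most mitosis genes are transcribed periodically and peak from the G2 phase to mitosis. Until then the DREAM complex holds many of them silent, and the B-Myb, MuvB and Foxm1 proteins later activate them, through a short promoter element called the cell cycle genes homology region (CHR) and through boxes bound by the factor NF-Y. The kinases among them drive entry and spindle assembly, the checkpoint proteins hold back anaphase until every chromosome is attached, and the anaphase-promoting complex then destroys cyclin B and securin. In IL-7 cultures pro-B cells divide continuously, so these genes are normally well expressed there.

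At 10 and 300 ng/ml doxycycline and in Pax5sz2, most of the 43 genes lay modestly above the control, and at 1000 ng/ml nearly all lay below it as labelled. The log2 ratio was above 0 on both arrays for 30 of 43 genes at 10 ng/ml (69.8%, against 38.5% of all features), for 26 of the 42 measured on both arrays at 300 ng/ml (61.9%, against 36%), for 0 of 43 at 1000 ng/ml (against 33.8%) and for 30 of 43 in Pax5sz2 (69.8%, against 41.9%). It was below 0 on both arrays for 8 genes at 10 ng/ml (18.6%, against 36% of all features), 7 at 300 ng/ml (16.7%, against 35.5%), 39 at 1000 ng/ml (90.7%, against 30.6%) and 9 in Pax5sz2 (20.9%, against 35.2%). The median mean log2 ratio of the 43 genes was 0.19, 0.28 and -0.61 at the 3 doses from low to high and 0.38 in Pax5sz2, where the median of all features lay between 0.003 and 0.026. On single arrays the 43-gene median was 0.19 and 0.22 for 10 ng/ml, 0.24 and 0.26 for 300 ng/ml, -0.61 and -0.63 for 1000 ng/ml and 0.32 and 0.34 for Pax5sz2, so both dye orientations gave nearly the same centre. All 4 comparisons are labelled with the same control, although the control channel of the 1000 ng/ml pair stood apart in level, as described below.

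**Figure D1:**
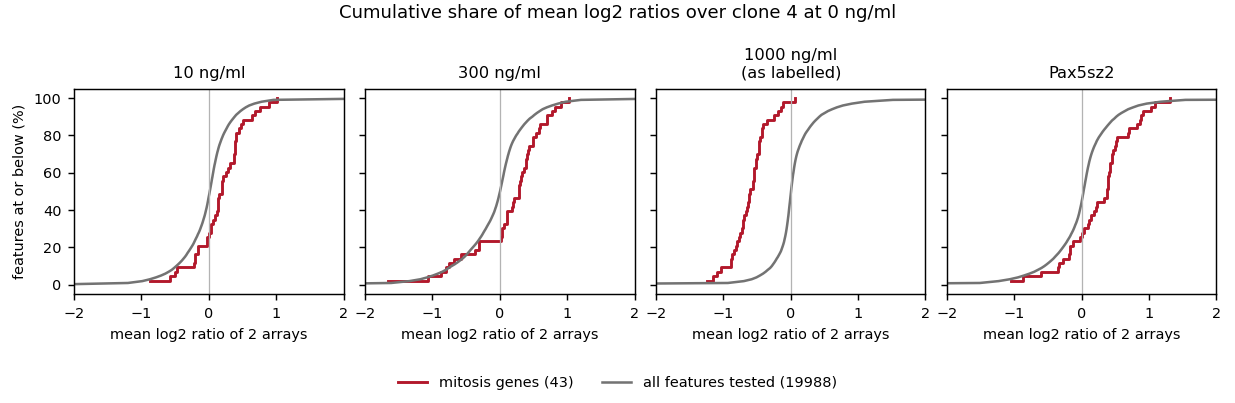
Cumulative share (%) of features at or below each mean log2 ratio of the 2 arrays, for the 43 mitosis genes (red steps) and all 19988 tested features (grey line), in one panel per comparison. The red curve lies to the right of the grey one through its middle at 10 ng/ml, 300 ng/ml and Pax5sz2 (medians 0.19, 0.28 and 0.38) and far to the left of it at 1000 ng/ml as labelled (median -0.61).

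Few single genes were far from the control. By a size rule of at least 2-fold (log2 of 1 or more) in the same direction on both arrays, no mitosis gene was higher or lower at 10 ng/ml, where 0.605% of all features were higher and 1.27% lower. None passed at 300 ng/ml either, against 1.31% of features higher and 2.37% lower. At 1000 ng/ml none was higher (1.94% of features) and 1, Nek2, was lower (0.635% of features). In Pax5sz2 1 gene, Aurka, was higher (2.34% of features) and none was lower (2.82% of features). A rule of 1.5-fold passed 4 genes higher at 10 ng/ml (3.13% of features) and 1 lower (5.23%), 4 higher at 300 ng/ml (4.99%) and 3 lower (7.56%), none higher at 1000 ng/ml (4.78%) and 17 lower (2.05%), and 8 higher in Pax5sz2 (6.42%) and 2 lower (7.55%). With 1 RNA a group neither rule is a test.

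The 1000 ng/ml pair stands apart from the other 6 arrays, called the later arrays here, and its direction is not settled. Its slides had been hybridised before, were scanned earlier and went through an older image-processing protocol. Its dose and its scan batch therefore cannot be told apart. Over all tested features its log2 ratios were anticorrelated with the 300 ng/ml array of the same orientation (r = -0.375 for array 1 and r = -0.481 for array 2, across genes, which are not independent replicates). Correlations were nearer 0 against the 10 ng/ml arrays (r = -0.175 and -0.205) and the Pax5sz2 arrays (r = -0.267 and -0.127). Summed intensities of the myeloid markers also differed by pair. They were 46540 to 57450 in the 1000 ng/ml channels, against 4473 to 5282 in the control channels of that pair, while they were 44380 to 55230 in the control channels of the 3 other pairs. In the other named channels they were 39730 to 49510 at 10 ng/ml, which overlaps the control, 9367 to 11910 at 300 ng/ml and 23440 to 26430 in Pax5sz2. The level of 36 of 43 (83.7%) in the control channel of the 1000 ng/ml pair exceeded their level in each of the 3 other control channels, against 32.8% of all features, and the level of 21 (48.8%) in the 1000 ng/ml channel lay below that in each of the 3 other named channels, against 31.1%. Every 1000 ng/ml value here is as labelled. With the sign turned the median would be 0.61, and Nek2 would be higher, not lower.

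Other facts of the arrays bear on all results. The share of spots well above background was 40.4% to 45.1% in the channels of the 1000 ng/ml pair and 59.5% to 75.5% in the rest, where that call was stricter (multiplier 13, against 2.6). The 2 arrays of a pair correlated with r = 0.836, 0.641 and 0.829 at the 3 doses from low to high and r = 0.922 in Pax5sz2. Precision is limited by how few arrays there are. The probe for the mouse Pax5 coding transcript gave log2 ratios of -0.07 and -0.15 at 10 ng/ml, 0.28 and 0.18 at 300 ng/ml and -0.25 and -0.30 in Pax5sz2. At 1000 ng/ml it was well above background in the control RNA alone. Another probe, to a mouse cDNA clone that the array files name Pax5 and describe as unclassifiable, gave 2.80 and 2.52 at 10 ng/ml, 2.39 and 2.32 at 300 ng/ml and 3.15 and 2.89 in Pax5sz2, and was not well above background in either RNA at 1000 ng/ml. It was high in Pax5sz2, which carries no huPax5, as well as in the 10 and 300 ng/ml RNAs, and neither probe was shown to measure the human transgene. Of the pro-B markers, Vpreb1 and Igll1, which encode the surrogate light chain, were not well above background in either RNA of the 3 dose comparisons, while 9 of the 11 markers were, in both RNAs, at 10 and 300 ng/ml. All 11 were in the Pax5sz2 pair. Control levels of the mitosis genes were steady over the 3 later pairs, with a median range of 0.174 on the log2 scale, against 0.199 for all features. Aurkb had the widest range, 0.869.

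The 300 ng/ml pair disagreed in one strip of the slide. In slide rows 1 to 50 of 206, 28% of 4611 features differed by 1 or more on the log2 scale between the arrays, against 0.442% of 15167 features elsewhere on the slides. No such strip was seen in the 3 other comparisons, where 0.125% to 0.386% of features differed so in either region. Of the mitosis genes, 13 have their spot in this strip, and 6 of those 13 differed by 1 or more (Nek2, Ttk, Cenpa, Cdca5, Smc2 and Foxm1), against 0 of the 29 measured elsewhere. In these 6 array 1 was the low one each time. The cause was not tested, and an alternative that leaves out array 1 in these rows, chosen after the data were seen, is given beside the results it moves.

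**Figure D2:**
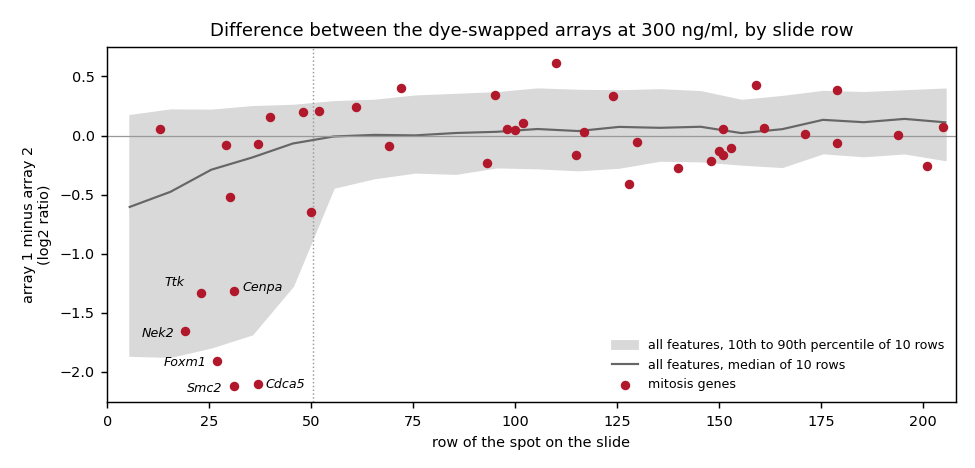
Array 1 minus array 2 log2 ratio at 300 ng/ml against the slide row of the spot, for the mitosis genes (red points) and for all features (grey line, median of 10 rows, with the 10th to 90th percentile shaded). The 6 named genes lie more than 1 below 0 in rows 1 to 50, left of the dotted line, and all genes in higher rows lie within 1 of 0.

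To test doxycycline across doses, limma models were fitted to all 19988 features, with the 2 arrays of a comparison averaged to 1 sample and a term of its own for Pax5sz2. Over the 3 doses, 0% of features were called higher and 0% lower at an adjusted p under 0.05 (smallest 0.701). An unadjusted p under 0.05 was found for 1185 features in either direction (5.93%, with 3.14% of all features higher). It was also found for 4 mitosis genes, all lower. With the 1000 ng/ml sign turned the calls were again 0% higher and 0% lower (smallest adjusted p 0.12). There 4902 features in either direction (24.5%, with 9.82% of all features higher) had an unadjusted p under 0.05. So did 21 mitosis genes, all 21 higher. The fitted Pax5sz2 difference, which assumes that Pax5sz2 varies as the doses do, called 0% higher and 0% lower as well (smallest adjusted p 0.0543), with 2103 features (10.5%) and 3 mitosis genes, 1 of them higher, at an unadjusted p under 0.05.

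Within the later scan batch, without the 1000 ng/ml pair, 8 mitosis genes rose (18.6% of 43, against 5.7% of all features) and 1 fell (2.33%, against 8.72%). Those that rose were Ccnf, Espl1, Aurka, Aurkb, Ncaph, Prc1, Cdca3 and Plk1, and Mki67 fell. Their limma adjusted p lay between 0.0373 and 0.0497, close to the threshold. This fit treats 10 and 300 ng/ml as 2 samples of 1 effect and leaves out the spread of the control RNA, which carries the same label in both. All 9 kept their call with array 1 of each pair left out, where 13.9% of all features were called higher and 17.1% lower. With array 2 of each pair left out 0 kept it, and 0% of all features were called either way. With robust and trended eBayes 0 kept it. No share of all features stands beside that setting, so this loss cannot be read as particular to these genes. From the processed signals 6 kept it and Plk1, Cdca3 and Prc1 lost it (adjusted p = 0.0733, 0.0733 and 0.0541). There 10.6% of all features were called higher and 11.4% lower. Without background correction Cdca3 lost it (adjusted p = 0.0513), where 5.25% of all features were called higher and 8.26% lower. Over the 9 alternatives run for them their adjusted p lay between 0.00644 and 0.135, and none changed direction. Leaving out array 1 of 300 ng/ml in slide rows 1 to 50, called without the strip in what follows, gave 18 genes higher (41.9%, against 14.6% of all features) and 4 lower (9.3%, against 17.1%). That alternative kept all 9 and added 13, 10 of them higher, whose adjusted p was 0.0145 to 0.0454 there and 0.0504 to 0.131 with all spots. Of these 13 only Cdc20 and Smc2 have their spot in the strip. The others lost no spot and had the same fitted mean in both fits, such as 0.44 for Ccnb1. Only their SE and adjusted p changed, and these draw on all features. Had each array been centred on its median with no loess, 19 would have been higher (against 10.5% of all features) and 1 lower (against 5.12%). Of 19 genes with another probe well above background at 10 and 300 ng/ml, 8 had one whose mean at those doses had the opposite sign (Bub3, Cdc25b, Cdca5, Cdca8, Cenpe, Mad2l1, Ncapd2 and Smc4). Of the 9 called genes only Cdca3 and Mki67 had such a probe, and neither had the opposite sign.

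**Figure D3:**
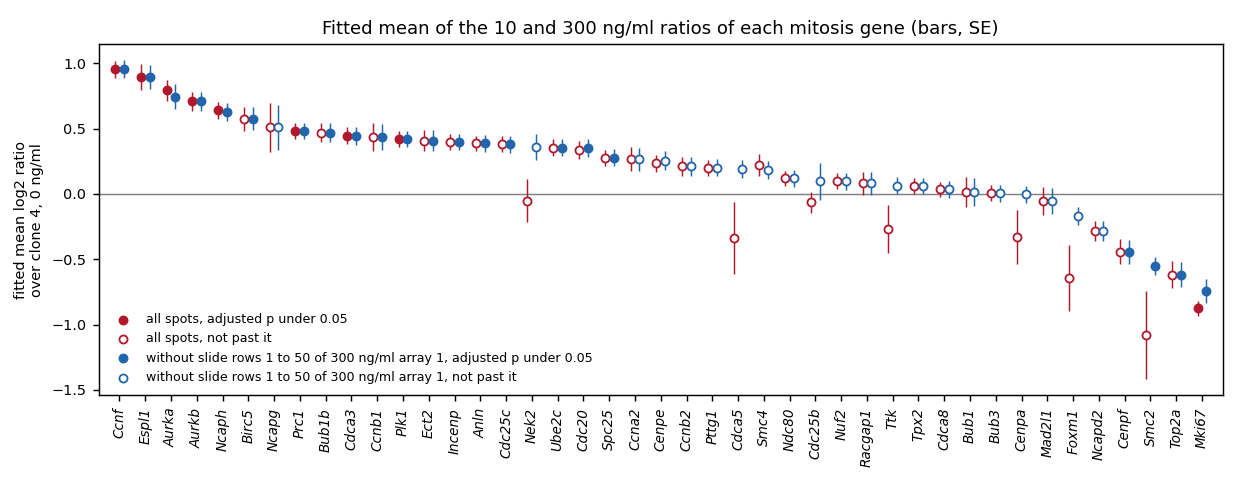
Fitted mean log2 ratio of 10 and 300 ng/ml for each of the 43 mitosis genes, in order of the alternative fit, with bars of 1 SE, for all spots (red) and without slide rows 1 to 50 of array 1 at 300 ng/ml (blue). Filled points have an adjusted p under 0.05: 9 in red and 22 in blue. Ccnf, at 0.95, is at the high end and Mki67, at -0.88 with all spots, at the low end.

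Markers of the stromal feeder moved in the same fit: 13 of 16 tested were higher and none lower, with a median log2 ratio of 0.80, 1.09 and -0.02 at the 3 doses from low to high and 0.45 in Pax5sz2. Their summed intensity was 39860 to 44960 in the 10 ng/ml channels, against 19790 to 21580 in the control channels of that pair. At 300 ng/ml it was 43190 to 52160, against 14470 to 20790 in the control channels, and in Pax5sz2 39520 to 40840, against 21550 to 22460. Only at 1000 ng/ml did the ranges overlap, 19540 to 23990 against 20480 to 23790 in the control channels. Dcn and Lum, which encode matrix proteoglycans, were not well above background in the 10, 300 and 1000 ng/ml RNAs, while the collagen gene Col3a1, Cxcl12 and Vcam1 passed the size rule at both 10 and 300 ng/ml. The part of feeder RNA in the mitosis gene ratios was not tested.

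**Figure D4:**
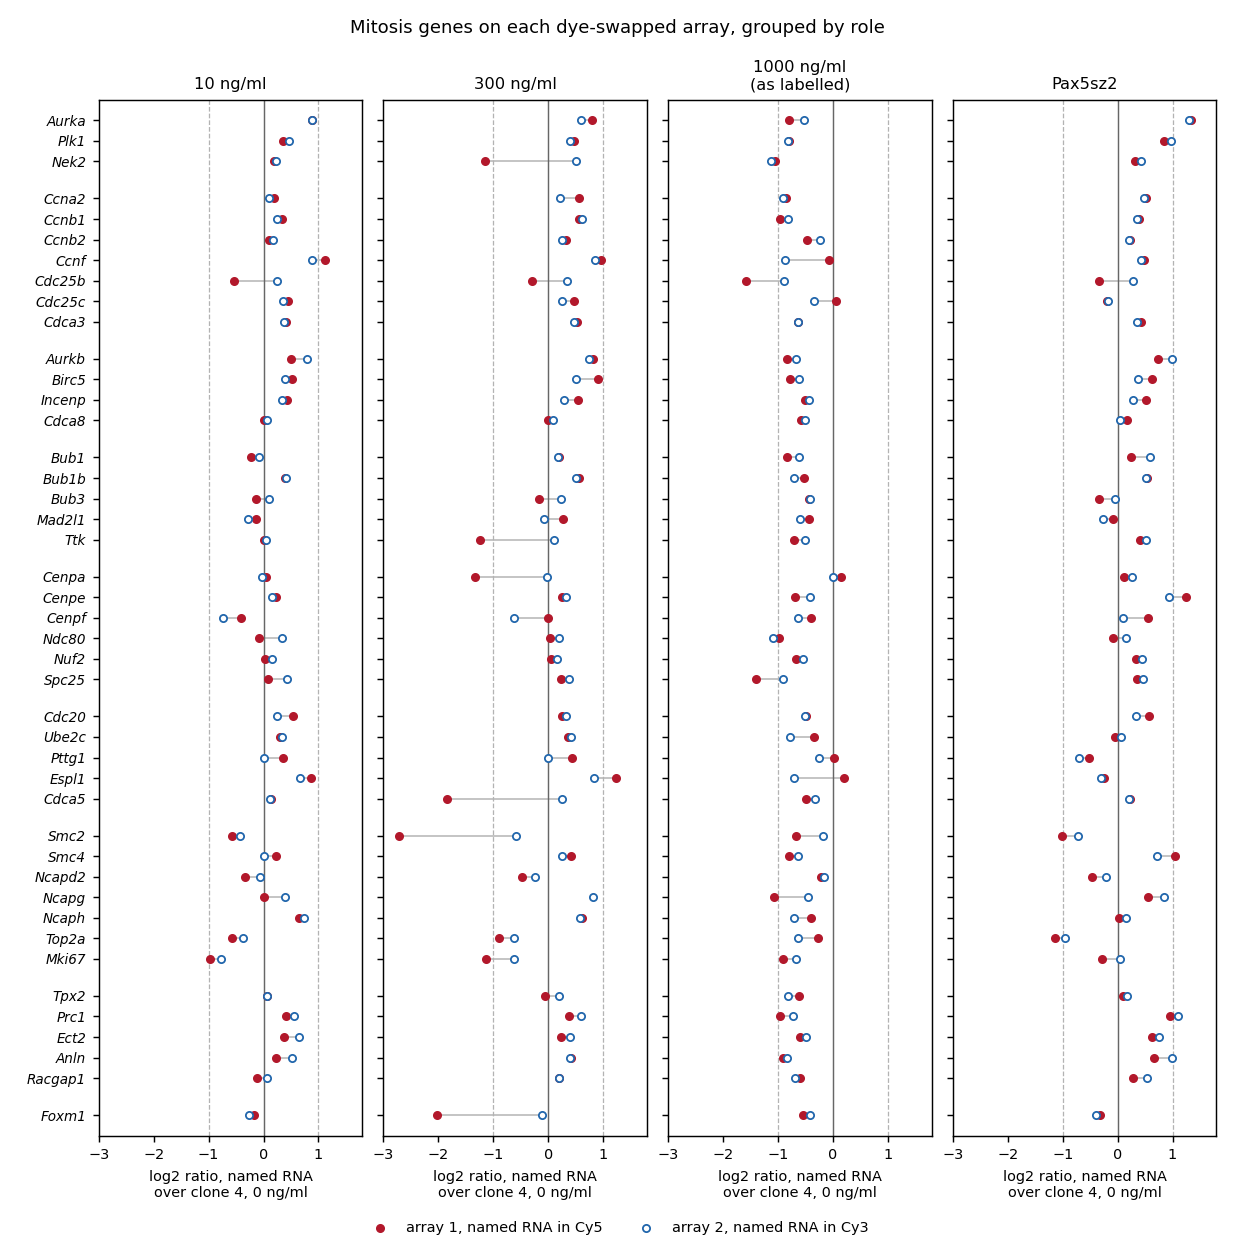
Log2 ratio of each mitosis gene over clone 4 at 0 ng/ml on array 1 (filled red, named RNA in Cy5) and array 2 (open blue, named RNA in Cy3), in one panel per comparison, with genes grouped by role and dashed lines at a 2-fold difference. Most pairs of points lie right of 0 at 10 ng/ml, 300 ng/ml and Pax5sz2 and left of 0 at 1000 ng/ml, and long grey lines at 300 ng/ml mark the 6 genes whose arrays differ by 1 or more.

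Among the mitotic kinases, Aurka and Plk1 rose in the fit without 1000 ng/ml, and Nek2 did not pass it. Aurka, the centrosomal Aurora kinase of spindle assembly, gave log2 ratios of 0.88 and 0.89 at 10 ng/ml, 0.80 and 0.60 at 300 ng/ml, -0.80 and -0.53 at 1000 ng/ml and 1.33 and 1.30 in Pax5sz2, array 1 first here and in later sentences. It lay above the control on all 6 later arrays and below it on both 1000 ng/ml arrays (fitted mean 0.80, SE 0.0799, adjusted p = 0.0386). In Pax5sz2 it averaged 1.32 ± 0.024, or 2.49-fold, the highest mean ratio of the 43 genes in that comparison, although its fitted adjusted p was 0.632 there. Its probe lies at chr2:172047439-172047498 (minus strand) in mm8, the build of the file headers. Plk1, the kinase that acts from mitotic entry to cytokinesis, gave 0.35 and 0.46 at 10 ng/ml, 0.46 and 0.40 at 300 ng/ml, -0.80 and -0.83 at 1000 ng/ml and 0.84 and 0.97 in Pax5sz2. The 4 arrays of 10 and 300 ng/ml spanned a range of 0.11, and the Pax5sz2 pair lay above them (fitted mean 0.42, SE 0.0604, adjusted p = 0.0473). Nek2, a kinase of centrosome separation read by a probe at chr1:193533079-193533138 (plus strand) in mm8, gave 0.20 and 0.22 at 10 ng/ml, -1.14 and 0.51 at 300 ng/ml, -1.06 and -1.13 at 1000 ng/ml and 0.32 and 0.43 in Pax5sz2. Both 1000 ng/ml arrays were past 2-fold on the low side as labelled, a mean of -1.09 ± 0.05, and the 300 ng/ml arrays lay on opposite sides of 0. Its spot is in slide row 19, within the strip where those arrays disagreed. The scanner's own processed signals, which are detrended, gave -0.47 and 0.66 for it at 300 ng/ml.

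Some of the promoters of genes that passed the fit are shown because the DREAM and MuvB system acts on the CHR and NF-Y letters. The 6 stretches below belong to the genes past that fit that hold both sets of letters between 150 bases before and 30 bases after the transcript start. They come from RefSeq, build GRCm38.p6, run 5′ to 3′ on the gene's strand, and carry in capitals the CHR letters TTTGAA or TTTAAA and the NF-Y letters CCAAT, on either strand (TTCAAA and ATTGG are their reverse complements, and TTTAAA is its own).
Aurka lies at chr2:172370541-172370720 (minus strand), Ccnf at chr17:24251380-24251559 (minus strand), Espl1 at chr15:102296143-102296322 (plus strand), Mki67 at chr7:135716350-135716529 (minus strand), Plk1 at chr7:122159285-122159464 (plus strand) and Prc1 at chr7:80294301-80294480 (plus strand).
Aurka: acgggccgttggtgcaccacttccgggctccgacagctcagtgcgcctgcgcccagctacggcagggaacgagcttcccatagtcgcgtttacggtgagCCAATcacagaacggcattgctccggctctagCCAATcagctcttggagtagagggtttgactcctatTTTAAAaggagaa
Ccnf: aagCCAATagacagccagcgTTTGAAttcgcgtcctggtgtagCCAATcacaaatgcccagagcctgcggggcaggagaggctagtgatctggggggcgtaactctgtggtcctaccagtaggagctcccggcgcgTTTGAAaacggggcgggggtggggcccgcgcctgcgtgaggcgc
Espl1: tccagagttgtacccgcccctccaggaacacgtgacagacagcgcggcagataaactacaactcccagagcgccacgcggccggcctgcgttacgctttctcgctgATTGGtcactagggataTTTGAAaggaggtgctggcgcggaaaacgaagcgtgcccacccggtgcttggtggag
Mki67: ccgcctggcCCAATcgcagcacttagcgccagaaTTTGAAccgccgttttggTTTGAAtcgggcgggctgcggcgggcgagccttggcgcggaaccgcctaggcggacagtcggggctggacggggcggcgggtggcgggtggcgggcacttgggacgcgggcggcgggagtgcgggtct
Plk1: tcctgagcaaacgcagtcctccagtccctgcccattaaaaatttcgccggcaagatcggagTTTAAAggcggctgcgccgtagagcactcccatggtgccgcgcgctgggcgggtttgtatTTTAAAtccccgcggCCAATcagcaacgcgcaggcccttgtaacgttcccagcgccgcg
Prc1: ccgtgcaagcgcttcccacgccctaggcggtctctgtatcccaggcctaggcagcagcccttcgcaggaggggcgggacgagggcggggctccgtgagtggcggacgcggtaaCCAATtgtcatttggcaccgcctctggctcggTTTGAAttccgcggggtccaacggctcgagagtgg
In Prc1 the NF-Y letters begin at base -37 and the CHR letters at -5 from the start, and in Espl1 the order is the same, at -44 and -27. Aurka has NF-Y letters at -51 and -19 and CHR letters at 17, downstream of the start. Within the stretch shown, Plk1 has the opposite order, with CHR letters at -89 and -29 and NF-Y letters at -14. In the longer window, from 250 bases before to 50 after the start, Plk1 has further CHR letters downstream of these NF-Y letters. Its CHR letters there lie on both sides of them. That window also holds further CHR letters for Aurka and further NF-Y letters for Mki67. The positions given here are those in the stretches shown. Mki67 has NF-Y letters at -141 and CHR letters at -116 and -98, and Ccnf has NF-Y letters at -147 and -107 and CHR letters at -130 and -14.

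Windows from 250 bases before to 50 after the start were found for 36 of the 43 genes, 39 windows in all. Aurkb, Ccna2, Cdc25c, Foxm1, Incenp, Smc4 and Tpx2 are not in that table. The CHR letters were in 32 windows (82.1%), against 27.6% of all 32851 promoter windows and 21.9% of the 15655 windows of tested features. The stricter TTTGAA alone was in 74.4%, against 17.9% of all windows and 13.5% of those of tested features. The NF-Y letters were in 31 windows (79.5%), against 37.4% and 37.6%, and 53.8% held them at 2 or more places, against 11.7% and 13.2%. Both sets were in 28 windows (71.8%), belonging to 25 genes, against 10.7% of all windows and 8.56% of those of tested features. Median GC content was 59% in the windows of the mitosis genes, against 52.7% in all windows and 59% in those of tested features. The CHR letters were most frequent in bases 0 to 24 from the start, in 30.8% of mitosis gene windows against 1.99% of all. The NF-Y letters peaked at -75 to -51, in 38.5% against 6.99%. Neither set was found in Mad2l1, Ncaph, Nuf2 and Pttg1, of which Ncaph rose in the fit. A match is a run of letters, not a bound site, and windows of 1 gene that overlap share sequence.

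**Figure D5:**
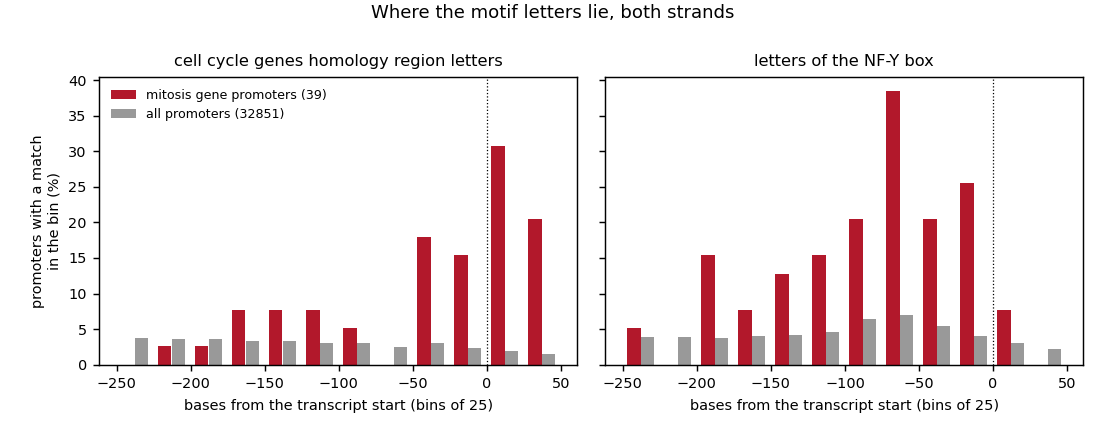
Share of promoters (%) with a match in each bin of 25 bases from 250 before to 50 after the transcript start, for the CHR letters (left) and the NF-Y letters (right), in 39 mitosis gene windows (red) and all 32851 windows (grey). The red bars peak at 30.8% just after the start for the CHR letters and at 38.5% in bases -75 to -51 for the NF-Y letters, where the grey bars are at 1.99% and 6.99%.

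Of the 7 cyclins and entry regulators, Ccnf and Cdca3 rose in the fit without 1000 ng/ml, and the median ratio of the group was 0.29, 0.39 and -0.64 at the 3 doses from low to high and 0.37 in Pax5sz2. Ccnf, which encodes cyclin F, a substrate adaptor of an SCF ubiquitin ligase, gave 1.12 and 0.89 at 10 ng/ml, 0.96 and 0.85 at 300 ng/ml, -0.08 and -0.87 at 1000 ng/ml and 0.49 and 0.42 in Pax5sz2. It had the highest ratio of the 43 genes at 10 ng/ml, 2.01-fold on average, lay above the control on 6 of 8 arrays, and its 1000 ng/ml arrays differed by 0.79 from each other (fitted mean 0.95, SE 0.0673, adjusted p = 0.0373). Cdca3, an F-box-like trigger of mitotic entry, gave 0.41 and 0.38 at 10 ng/ml, 0.52 and 0.47 at 300 ng/ml, -0.63 and -0.64 at 1000 ng/ml and 0.42 and 0.35 in Pax5sz2. By this brightest probe its 6 later arrays lay close together, all above 0 (fitted mean 0.45, SE 0.0674, adjusted p = 0.0497). For Cdca3 a dimmer probe gave 0.41 and 0.29 at 10 ng/ml, 0.82 and 0.26 at 300 ng/ml, -0.29 and -0.58 at 1000 ng/ml and 0.08 and -0.08 in Pax5sz2. Ccnb1, the cyclin B that activates Cdk1 for entry, gave 0.33 and 0.24 at 10 ng/ml, 0.56 and 0.62 at 300 ng/ml, -0.96 and -0.82 at 1000 ng/ml and 0.38 and 0.36 in Pax5sz2. By this brightest probe it was above the control on all 6 later arrays, as it was by a dimmer one. Another dimmer probe gave 0.58 and 0.14 at 10 ng/ml, -0.81 and 0.27 at 300 ng/ml and 0.85 and 0.38 in Pax5sz2. Ccnb1 did not pass the fit (adjusted p = 0.0875), but did so without the strip (fitted mean 0.44, SE 0.0988, adjusted p = 0.0429), as did Cdc25c, a phosphatase that activates Cdk1. Cdc25b, another such phosphatase and the lowest of the group, gave -0.55 and 0.24 at 10 ng/ml, -0.30 and 0.35 at 300 ng/ml, -1.59 and -0.90 at 1000 ng/ml and -0.34 and 0.28 in Pax5sz2. By this brightest probe array 1 lay below array 2 in all 4 comparisons, by 0.61 to 0.78, so its sign at 10 ng/ml, 300 ng/ml and Pax5sz2 depended on the dye. A dimmer Cdc25b probe gave 0.39 and 0.00 at 10 ng/ml, 0.53 and 0.32 at 300 ng/ml, -0.63 and -1.34 at 1000 ng/ml and 0.10 and -0.19 in Pax5sz2. Ccna2 and Ccnb2, the A- and B-type cyclins with mean ratios of 0.14 and 0.14 at 10 ng/ml, did not pass (adjusted p = 0.154 and 0.15).

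The chromosomal passenger complex, which corrects faulty spindle attachments and guides cytokinesis, had 4 listed subunits, all with a mean above 0 at 10 ng/ml, 300 ng/ml and Pax5sz2 by their brightest probes. The group median was 0.42, 0.56 and -0.62 at the 3 doses from low to high and 0.45 in Pax5sz2. Aurkb, its catalytic kinase, rose, with 0.50 and 0.78 at 10 ng/ml, 0.81 and 0.75 at 300 ng/ml, -0.83 and -0.67 at 1000 ng/ml and 0.73 and 1.00 in Pax5sz2. All 6 later arrays were above the control (fitted mean 0.71, SE 0.0722, adjusted p = 0.039), and its control level was the least steady of the 43 genes, at 12.24, 12.45 and 11.58 on the log2 scale in the 10 ng/ml, 300 ng/ml and Pax5sz2 pairs. Birc5, which encodes survivin, had 0.52 and 0.39 at 10 ng/ml, 0.90 and 0.50 at 300 ng/ml, -0.78 and -0.61 at 1000 ng/ml and 0.62 and 0.37 in Pax5sz2, and it did not pass with all spots (adjusted p = 0.0529). Incenp, the scaffold, had 0.42 and 0.34 at 10 ng/ml, 0.54 and 0.29 at 300 ng/ml, -0.50 and -0.44 at 1000 ng/ml and 0.52 and 0.27 in Pax5sz2, and it did not pass either (adjusted p = 0.0504). Both lay above the control on the 6 later arrays and passed without the strip. Cdca8, which encodes borealin, was the lowest of the group by its brightest probe, with 0.02 and 0.06 at 10 ng/ml, -0.01 and 0.08 at 300 ng/ml, -0.58 and -0.51 at 1000 ng/ml and 0.16 and 0.05 in Pax5sz2. That probe lay at most 0.16 from 0 on the 6 later arrays, but 2 dimmer ones did not. One gave 0.92 and 0.95 at 10 ng/ml, 1.19 and 0.86 at 300 ng/ml, -0.53 and -0.59 at 1000 ng/ml and -0.30 and -0.06 in Pax5sz2, above the control at 10 and 300 ng/ml. The other gave -1.15 and -0.62 at 10 ng/ml, -0.85 and -0.99 at 300 ng/ml, -0.16 and -0.11 at 1000 ng/ml and -0.65 and -0.64 in Pax5sz2, below it on those arrays, so no direction can be given for Cdca8 at 10 and 300 ng/ml.

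None of the 5 spindle checkpoint genes passed with all spots. Their median was -0.02, 0.10 and -0.61 at the 3 doses from low to high and 0.42 in Pax5sz2. Bub1b, which encodes the checkpoint inhibitor BubR1, was the highest, with 0.39 and 0.40 at 10 ng/ml, 0.57 and 0.51 at 300 ng/ml, -0.53 and -0.71 at 1000 ng/ml and 0.54 and 0.52 in Pax5sz2. It was above the control on 6 later arrays within a range of 0.18 (adjusted p = 0.0516), and passed without the strip (fitted mean 0.47, SE 0.0729, adjusted p = 0.0213). Ttk, the kinase Mps1 that starts checkpoint signalling, was the lowest, with 0.01 and 0.05 at 10 ng/ml, -1.24 and 0.10 at 300 ng/ml, -0.71 and -0.52 at 1000 ng/ml and 0.41 and 0.51 in Pax5sz2. Its low mean at 300 ng/ml rests on array 1, in slide row 23, where the processed signals gave -0.14 and 0.10. Bub1, a kinetochore kinase, Bub3, which recruits it, and Mad2l1, which encodes Mad2, had mean ratios between -0.21 and 0.19 at 10 and 300 ng/ml by their brightest probes. A dimmer Bub3 probe had means of -0.58 and -0.55 at these doses, and another 0.07 and 0.12. The dimmer Mad2l1 probe had 0.09 and 0.23.

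Of the 6 centromere and kinetochore genes none passed with all spots either, and the median was 0.11, 0.11 and -0.58 at the 3 doses from low to high and 0.36 in Pax5sz2. Spc25, a subunit of the Ndc80 complex that holds microtubules, was the highest, with 0.08 and 0.43 at 10 ng/ml, 0.24 and 0.37 at 300 ng/ml, -1.39 and -0.91 at 1000 ng/ml and 0.35 and 0.46 in Pax5sz2. It lay above the control on the 6 later arrays and 2.22-fold below it on average at 1000 ng/ml (adjusted p = 0.0781 with all spots). Its partners Ndc80 and Nuf2 had mean ratios of 0.13 and 0.09 at 10 ng/ml and -1.04 and -0.61 at 1000 ng/ml. Cenpf, a large protein of the outer kinetochore, was the lowest, with -0.41 and -0.73 at 10 ng/ml, -0.01 and -0.62 at 300 ng/ml, -0.41 and -0.64 at 1000 ng/ml and 0.56 and 0.10 in Pax5sz2. It was below the control on all 4 arrays of 10 and 300 ng/ml and above it in Pax5sz2 (adjusted p = 0.0752), and fell without the strip (fitted mean -0.44, SE 0.0915, adjusted p = 0.0356). Cenpa, the histone H3 variant of centromeres, had 0.04 and -0.02 at 10 ng/ml, -1.33 and -0.02 at 300 ng/ml, 0.14 and -0.01 at 1000 ng/ml and 0.12 and 0.26 in Pax5sz2. It stayed within 0.26 of 0 on every array but array 1 of 300 ng/ml, where its spot is in row 31.

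Cenpe, a kinesin that moves chromosomes to the spindle equator, differed by probe. Its brightest probe, at chr3:135210810-135210869 (plus strand) in mm8, gave 0.22 and 0.16 at 10 ng/ml, 0.24 and 0.32 at 300 ng/ml, -0.68 and -0.42 at 1000 ng/ml and 1.25 and 0.93 in Pax5sz2. A dimmer probe, at chr3:135155915-135156056 (plus strand), gave -1.34 and -0.86 at 10 ng/ml, -1.36 and -1.08 at 300 ng/ml, -0.60 and -0.33 at 1000 ng/ml and -1.46 and -1.06 in Pax5sz2, and another, at chr3:135206473-135208085 (plus strand), gave -0.86 and -0.72 at 10 ng/ml, -0.73 and -0.89 at 300 ng/ml, -0.30 and -0.94 at 1000 ng/ml and -0.19 and 0.07 in Pax5sz2. The brightest probe was above the control at 10 ng/ml, 300 ng/ml and Pax5sz2, while the first of the dimmer ones was below it on all 8 arrays. No direction can be given for Cenpe as a gene at 10 ng/ml, 300 ng/ml or in Pax5sz2. At 1000 ng/ml all its probes were below the control as labelled.

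Of the 5 genes of anaphase promotion and cohesion, Espl1 rose, and the group median was 0.32, 0.28 and -0.41 at the 3 doses from low to high and 0.01 in Pax5sz2. Espl1, which encodes separase, the protease that opens cohesin, gave 0.86 and 0.66 at 10 ng/ml, 1.23 and 0.84 at 300 ng/ml, 0.21 and -0.71 at 1000 ng/ml and -0.25 and -0.30 in Pax5sz2. It was the highest of the 43 genes at 300 ng/ml, 2.04-fold on average, and below the control on both Pax5sz2 arrays, while its 1000 ng/ml arrays lay on either side of 0 (fitted mean 0.90, SE 0.0979, adjusted p = 0.0403). Pttg1, which encodes securin, the inhibitor of separase, had 0.36 and 0.02 at 10 ng/ml, 0.43 and 0.00 at 300 ng/ml, 0.03 and -0.25 at 1000 ng/ml and -0.52 and -0.70 in Pax5sz2. It was the lowest of the group in Pax5sz2 and did not pass (adjusted p = 0.122). Cdc20 and Ube2c, the activator and the ubiquitin-conjugating enzyme of the anaphase-promoting complex, had mean ratios of 0.39 and 0.32 at 10 ng/ml and 0.28 and 0.39 at 300 ng/ml. Neither passed with all spots (adjusted p = 0.0686 and 0.0597), and both did without the strip. Cdca5, which encodes sororin, a protector of cohesin, had 0.13 and 0.12 at 10 ng/ml, -1.85 and 0.25 at 300 ng/ml, -0.48 and -0.33 at 1000 ng/ml and 0.22 and 0.21 in Pax5sz2. Its 300 ng/ml arrays differed by 2.10, with the spot in row 37, and the processed signals gave -0.69 and 0.19.

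The condensins and chromosome structure genes were the most divided group, with mean ratios between -0.87 and 0.69 at 10 ng/ml and medians of -0.20, -0.36 and -0.56 at the 3 doses from low to high and -0.12 in Pax5sz2. Ncaph, the kleisin subunit of condensin I, rose, with 0.65 and 0.73 at 10 ng/ml, 0.62 and 0.57 at 300 ng/ml, -0.41 and -0.71 at 1000 ng/ml and 0.03 and 0.15 in Pax5sz2. Its 4 arrays of 10 and 300 ng/ml lay between 0.57 and 0.73, and Pax5sz2 was near 0 (fitted mean 0.64, SE 0.0655, adjusted p = 0.039). Ncapg, another condensin I subunit, had 0.00 and 0.40 at 10 ng/ml, 0.82 at 300 ng/ml on array 2 alone, the array 1 spot being an outlier, -1.07 and -0.45 at 1000 ng/ml and 0.56 and 0.85 in Pax5sz2 by its brightest probe, which did not pass (adjusted p = 0.171). A dimmer Ncapg probe gave 0.65 and 1.30 at 10 ng/ml, 0.97 and 0.91 at 300 ng/ml, -0.75 and -0.59 at 1000 ng/ml and 0.12 and 0.39 in Pax5sz2. Mki67, which encodes the proliferation marker Ki-67 that coats mitotic chromosomes, fell, with -0.98 and -0.77 at 10 ng/ml, -1.14 and -0.62 at 300 ng/ml, -0.91 and -0.68 at 1000 ng/ml and -0.29 and 0.04 in Pax5sz2. It was below the control on all 6 clone 4 arrays and near it in Pax5sz2 (fitted mean -0.88, SE 0.06, adjusted p = 0.0373), the lowest ratio of the 43 genes at 10 ng/ml, and its spot is in row 30. Another Mki67 probe also lay below the control on average, with means of -0.46, -0.16 and -0.66 at the 3 doses from low to high and -0.34 in Pax5sz2. Top2a, the topoisomerase that untangles sister chromatids, had -0.57 and -0.38 at 10 ng/ml, -0.90 and -0.62 at 300 ng/ml, -0.27 and -0.64 at 1000 ng/ml and -1.14 and -0.96 in Pax5sz2. By this brightest probe it was below the control on all 8 arrays and just missed the threshold (adjusted p = 0.0543), which it passed without the strip (fitted mean -0.62, SE 0.0962, adjusted p = 0.0213). A dimmer Top2a probe lay near 0 at those doses, with -0.17 and 0.05 at 10 ng/ml and -0.09 and 0.02 at 300 ng/ml. It gave -1.48 and -0.96 in Pax5sz2. The dimmest one was below the control by 0.12 to 0.29 at 10 and 300 ng/ml. Ncapd2, a further condensin I subunit, was below the control on all 8 arrays as well, by 0.07 to 0.48 by its brightest probe (adjusted p = 0.102). A dimmer Ncapd2 probe gave 0.45 and 0.08 at 10 ng/ml, 0.43 and 0.16 at 300 ng/ml, 0.24 and -0.61 at 1000 ng/ml and -0.02 and -0.28 in Pax5sz2, above the control at 10 and 300 ng/ml, so no direction can be given for Ncapd2 there.

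The core condensin ATPases Smc2 and Smc4 were each read by probes that disagreed. Smc2 had the lowest mean of the 43 genes at 300 ng/ml, and its brightest probe, at chr4:52488944-52489003 (plus strand) in mm8, gave -0.58 and -0.43 at 10 ng/ml, -2.72 and -0.60 at 300 ng/ml, -0.67 and -0.19 at 1000 ng/ml and -1.02 and -0.72 in Pax5sz2. The mean of -1.66 at 300 ng/ml rests on array 1, where the spot is in row 31, and the processed signals gave -1.43 and -0.63. Without the strip Smc2 fell (fitted mean -0.55, SE 0.0671, adjusted p = 0.0145), and with all spots it did not pass (adjusted p = 0.131). Its 3 other detected probes had means between -0.49 and -0.30 at 10 ng/ml and between -0.52 and -0.37 at 300 ng/ml, with no such gap. In Pax5sz2 the 4 probes had means between -1.25 and 0.21, on both sides of the control. Smc4 gave 0.23 and 0.01 at 10 ng/ml, 0.41 and 0.25 at 300 ng/ml, -0.80 and -0.63 at 1000 ng/ml and 1.05 and 0.72 in Pax5sz2 by its brightest probe, at chr3:69122460-69122519 (plus strand). Another probe, at chr3:69116415-69116473 (plus strand), gave -0.06 and -0.31 at 10 ng/ml, -2.10 and -0.46 at 300 ng/ml, -0.68 and -0.64 at 1000 ng/ml and -0.52 and -0.47 in Pax5sz2. The 2 probes had opposite signs at 10 ng/ml, 300 ng/ml and Pax5sz2, so no direction can be given for Smc4 there. At 1000 ng/ml both were below the control as labelled.

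Of the 5 genes of spindle assembly and cytokinesis, Prc1 rose, and the group median was 0.37, 0.31 and -0.71 at the 3 doses from low to high and 0.69 in Pax5sz2. Prc1, which bundles the microtubules of the central spindle, gave 0.40 and 0.56 at 10 ng/ml, 0.38 and 0.59 at 300 ng/ml, -0.96 and -0.74 at 1000 ng/ml and 0.96 and 1.09 in Pax5sz2. It lay above the control on all 6 later arrays and 2.03-fold above it on average in Pax5sz2 (fitted mean 0.48, SE 0.0601, adjusted p = 0.043). Ect2, the exchange factor that activates RhoA for the contractile ring, and Anln, which encodes the ring scaffold anillin, had mean ratios of 0.50 and 0.37 at 10 ng/ml and 0.69 and 0.83 in Pax5sz2. Neither passed with all spots (adjusted p = 0.0676 and 0.0516), and both did without the strip. For Ect2 a dimmer probe gave 0.00 and 0.29 at 10 ng/ml, -0.02 and -0.10 at 300 ng/ml, -0.64 and -0.34 at 1000 ng/ml and 0.27 and 0.42 in Pax5sz2. At 300 ng/ml that probe lay below the control, where the brightest was above. A dimmer Anln probe gave 0.29 and 0.14 at 10 ng/ml, 0.31 and 0.09 at 300 ng/ml, -0.21 and -0.16 at 1000 ng/ml and -0.21 and -0.21 in Pax5sz2, above the control at 10 and 300 ng/ml and below it in Pax5sz2, where the brightest was above. Tpx2, the microtubule nucleator that activates Aurora A, was the lowest of the group, with 0.06 and 0.07 at 10 ng/ml, -0.07 and 0.19 at 300 ng/ml, -0.61 and -0.81 at 1000 ng/ml and 0.09 and 0.17 in Pax5sz2. Racgap1, which with a kinesin forms the centralspindlin complex, lay near it with means of -0.03 and 0.20 at 10 and 300 ng/ml by its brightest probe, while a dimmer one gave 0.70 and 0.89 at 10 ng/ml, 0.76 and 0.74 at 300 ng/ml, -0.63 and -0.28 at 1000 ng/ml and -0.10 and 0.32 in Pax5sz2, above the control on all 4 arrays of 10 and 300 ng/ml.

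Foxm1, the transcription factor that activates many of these genes, gave -0.17 and -0.27 at 10 ng/ml, -2.02 and -0.11 at 300 ng/ml, -0.54 and -0.42 at 1000 ng/ml and -0.32 and -0.39 in Pax5sz2. It was below the control on all 8 arrays, by 0.11 to 0.54 on all but array 1 of 300 ng/ml, and did not pass (adjusted p = 0.186). Its spot is in slide row 27, and there the processed signals gave -0.70 and -0.11.

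Genes of neighbouring pathways were taken from lists that hold no member and are described by their calls in the fit without 1000 ng/ml. Of 12 mitotic kinesins 3 rose and none fell, of 15 subunits and regulators of the anaphase-promoting complex 2 rose and none fell, and of 13 Cdk core genes and inhibitors 2 rose and none fell. Of 24 DNA replication genes 2 rose and none fell, and of 15 other spindle and centrosome genes 1 rose and none fell. The other kinetochore genes went both ways, with 3 of 29 up and 4 down, while 3 of 9 cohesin genes fell and none rose, and 1 of 16 MuvB, Myb and E2F regulators fell and none rose. These counts stand against 5.7% of all features higher and 8.72% lower.

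Kifc1, a minus-end kinesin that focuses spindle poles, had the largest ratios of the pathway genes at 10 and 300 ng/ml, with 2.18 and 2.69 at 10 ng/ml, 2.86 and 2.66 at 300 ng/ml, -0.75 and -0.53 at 1000 ng/ml and 0.52 and 1.65 in Pax5sz2. It rose in the fit (adjusted p = 0.0373), as did Kif15, a kinesin that helps keep the spindle bipolar, with 0.67 and 0.91 at 10 ng/ml, 0.84 and 0.90 at 300 ng/ml, -0.46 and -0.57 at 1000 ng/ml and 1.39 and 1.51 in Pax5sz2. Both lay above the control on all 6 later arrays and below it at 1000 ng/ml. Hjurp, the chaperone that places Cenpa at centromeres, fell (adjusted p = 0.0373), with -1.39 and -1.22 at 10 ng/ml, -1.52 and -1.28 at 300 ng/ml, 0.01 and 0.30 at 1000 ng/ml and -2.02 and -1.75 in Pax5sz2. Knl1, the kinetochore scaffold that recruits Bub1, fell too (adjusted p = 0.0373), with -1.14 and -1.06 at 10 ng/ml, -1.05 and -1.07 at 300 ng/ml, -0.20 and -0.35 at 1000 ng/ml and -2.09 and -1.91 in Pax5sz2. Both were at least 2-fold below the control on all 6 later arrays, while Bub1 and Cenpa themselves did not pass.

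Cks2, a small Cdk-binding subunit, rose (adjusted p = 0.0373), with 0.91 and 0.64 at 10 ng/ml, 0.85 and 0.84 at 300 ng/ml, -0.34 and -0.27 at 1000 ng/ml and 0.77 and 0.57 in Pax5sz2, and its paralog Cks1b did not pass (adjusted p = 0.0524). Cdc23 and Cdc26, subunits of the anaphase-promoting complex, both rose, with mean ratios of 0.44 and 0.50 at 10 ng/ml and 0.55 and 0.47 at 300 ng/ml. Nipbl, the loader of cohesin, fell (adjusted p = 0.0403), with -1.29 and -0.93 at 10 ng/ml, -0.97 and -0.66 at 300 ng/ml, -0.19 and 0.33 at 1000 ng/ml and -0.13 and 0.21 in Pax5sz2. Its ratios were below the control at 10 and 300 ng/ml and on both sides of it in Pax5sz2. Orc1, a subunit of the origin recognition complex, E2f6, a repressive E2F, and Cep55, an abscission protein, did not pass (adjusted p = 0.085, 0.0517 and 0.0565). Mcm5, a subunit of the replicative helicase, Stag1, a cohesin subunit, Rbl2, which encodes the DREAM protein p130, and Ckap2, a spindle protein, did not pass either, and for each of them array 1 of 300 ng/ml was at least 1 lower than array 2 on the log2 scale.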

How the data were processed

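The 8 two-colour Agilent mouse arrays hold 43790 spots each. Per the file headers, Agilent Feature Extraction 10.5.1.1 made them, and the deposited scanner files hold mean and local background intensity without normalization, processed signals after background subtraction and dye normalization (detrended on all but the 1000 ng/ml pair), and a log10 ratio of Cy5 over Cy3. The log10 values of the deposited series matrix equal that ratio turned to named over control RNA within 5e-06. From the spots, R 4.3.3 and limma 3.58.1 applied normexp (offset 50) and loess with control spots at weight 0. Outlier spots (37 to 295 an array) were left out, spots of a probe (41174 probes) averaged and signs turned to named minus control RNA. A feature entered the tests if 1 of its RNAs was called well above background on each array of some pair. limma fits used eBayes, two-sided, with Benjamini-Hochberg adjustment over 19988 features and a threshold of 0.05, and were tested on simulated data. They measure the spread between doses only. Alternatives were median centring, no background correction, processed signals, the series matrix, no filter on dim probes, the mean over all probes, each array left out, a 1.5-fold size rule, the 1000 ng/ml sign turned or pair left out, robust eBayes and, added after the data were seen, slide rows left out. The members and all gene lists were chosen with earlier results of these data known. Values on every array are given for members past the size rule or the fit, for the highest and lowest of each role group by the mean of 10 and 300 ng/ml and for those whose probes differ by 1 or more, and for some others chosen after their values were seen. Of each other list the 2 genes with the largest mean at those doses are named.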

Additional observations from a re-analysis of the deposited data

Results flagged for a closer look

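Every array of the 10 or 300 ng/ml pair lay on one side of the control and every array of the 1000 ng/ml pair on the other for many mitosis genes. As labelled, 27 of the 43 genes (62.8%) were above the control at 10 ng/ml and below it at 1000 ng/ml, against 15.2% of all features, and 24 of the 42 measured (57.1%) were above it at 300 ng/ml and below it at 1000 ng/ml, against 16.1%. None lay the other way round, against 17.6% and 20.2% of all features. The differences were not tested, the comparisons are labelled with the same control, and dose and scan batch cannot be told apart. The median ratio of the 43 genes differed by 0.79 on the log2 scale for 10 minus 1000 ng/ml and by 0.89 for 300 minus 1000 ng/ml. The direction of the 1000 ng/ml pair is not settled, and with its sign turned these differences would be -0.42 and -0.32. The 27 differences of 10 minus 1000 ng/ml ran from 0.49 to 1.55 as labelled and from -0.90 to 0.53 with the sign turned, 24 of them below 0. The 24 of 300 minus 1000 ng/ml ran from 0.63 to 1.53 as labelled and from -0.93 to 0.43 with the sign turned, 19 of them below 0. Smc4 and Cenpe, where another probe differed the other way, are not given singly. By the brightest probe and as labelled, the difference of 300 minus 1000 ng/ml was 1.53 for Aurkb, 1.48 for Ccnb1, 1.46 for Spc25, 1.39 for Birc5, 1.38 for Ccnf, 1.37 for Aurka, 1.33 for Prc1 and 1.27 for Anln. It was 1.27 for Ccna2, 1.25 for Plk1, 1.16 for Bub1b, 1.16 for Ncaph, 1.14 for Ndc80 and 1.14 for Cdca3. The lowest values were 0.95 for Ube2c, 0.91 for Bub1, 0.89 for Incenp, 0.85 for Ect2, 0.84 for Racgap1, 0.78 for Cdc20, 0.71 for Nuf2 and 0.63 for Ccnb2.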

How the results depend on the processing

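With 1 RNA a comparison, a p-value covers the spread between doses and not between cultures, and the arrays' number limits precision. With median centring the 43-gene median was 0.50, 0.38 and -0.71 at the 3 doses from low to high and 0.74 in Pax5sz2, where all features had a median of 0.147. That scaling gave 1 gene lower at 300 ng/ml and 0 lower at 1000 ng/ml by the size rule, 2 higher in Pax5sz2, and 19 higher in the fit without 1000 ng/ml (10.5% of all features). Processed signals and the series matrix gave 1 higher at 10 ng/ml, 3 lower at 1000 ng/ml, 2 higher in Pax5sz2, 2 lower in that fit (11.4% of all features from the processed signals), and medians of 0.31 (300 ng/ml), -0.66 (1000 ng/ml) and 0.39 (Pax5sz2). Without background correction 2 genes were lower at 1000 ng/ml. The mean over all probes gave medians of 0.22 (300 ng/ml), -0.55 (1000 ng/ml) and 0.22 (Pax5sz2), 2 lower at 1000 ng/ml, and 14 higher and 2 lower in that fit (6.36% and 10% of all features). A 1.5-fold rule passed 4 higher and 1 lower at 10 ng/ml (3.13% and 5.23% of all features), 4 and 3 at 300 ng/ml (4.99% and 7.56%), 17 lower at 1000 ng/ml (2.05%) and 8 higher and 2 lower in Pax5sz2 (6.42% and 7.55%). With the 1000 ng/ml sign turned its median was 0.61, 1 gene was higher and 0 lower there, and Nek2 had 1.09. Without that pair the fit over doses had 8 genes higher and 1 lower (5.7% and 8.72% of all features). Robust and trended eBayes left 0 higher and 0 lower without 1000 ng/ml, a setting with no share of all features beside it. Leaving slide rows 1 to 50 of array 1 out, chosen after the data were seen, gave a 300 ng/ml median of 0.31 and 18 higher and 4 lower in that fit (14.6% and 17.1% of all features). With either array left out, the medians ran from 0.19 to 0.22 at 10 ng/ml, 0.24 to 0.26 at 300 ng/ml, -0.63 to -0.61 at 1000 ng/ml and 0.32 to 0.34 in Pax5sz2. The size rule then passed 0 to 1 higher at 10 ng/ml, 0 to 1 higher and 0 to 7 lower at 300 ng/ml, 2 to 4 lower at 1000 ng/ml, and 2 to 3 higher and 0 to 2 lower in Pax5sz2. Counts by the 2-fold size rule under alternative settings have no share of all features beside them, so they cannot be read as particular to these genes. The fit without 1000 ng/ml then had 0 to 17 higher and 0 to 4 lower. The zeros came without array 2, where 0% of all features were called either way. The upper counts came without array 1, where 13.9% of all features were higher and 17.1% lower. Over those alternatives to that fit for which it is given, the share of all features called ran from 0% to 14.6% higher and from 0% to 17.1% lower. The causes were not tested. Without the filter on dim probes 12 genes were higher in the fit without 1000 ng/ml (4.87% of 27574 features), against 8 with the filter (5.7% of all features). The other counts and medians stayed the same. No paired analysis was possible because each comparison is 1 RNA on 2 technical arrays.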
